A study of Mus musculus with 20 samples.

Results

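Among the 42403 GATA6-bound regions of the series, 250 were gained late by GATA6 and already carried pluripotency transcription factors (PTFs) in undifferentiated mouse embryonic stem (ES) cells. They are the regions that the table places both in the Late GATA6 cluster and in the class bound by PTFs at d0. They were thus chosen by GATA6 chromatin immunoprecipitation signal, clustered over the time points, and by peak calls of OCT4, SOX2 and ESRRB, so neither GATA6 nor PTF binding is a finding about these regions. Their accessibility was not used to choose them.

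GATA6 is the zinc-finger factor that drives primitive endoderm (PrE), the lineage of the yolk sac, and it can bind its motif in DNA wrapped in nucleosomes. OCT4, SOX2 and ESRRB keep ES cells pluripotent, and OCT4 and SOX2 often bind side by side on a composite OCT4:SOX2 motif. SOX17, an endoderm relative of SOX2, is switched on as cells enter PrE and binds the short sequence that SOX factors share.

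Accessibility was measured by ATAC-seq, in which the Tn5 transposase cuts exposed DNA, in 17 samples of KH2 ES cells (C57BL/6 x 129/Sv) with a doxycycline-inducible Gata6 cassette, and in 3 samples of XEN cells. The ES cells were collected before induction (d0, 3 samples), and 8 h, 16 h, 1, 2 and 4 days after 1 µg/mL doxycycline was added, with 3 samples at each time but day 4, which has 2. These times follow the sample titles, and the treatment labels give longer exposures at all of them but day 4, such as 24 h for the 16 h samples. XEN cells are an extraembryonic endoderm line derived from the PrE of embryos, grown without LIF and not induced, and they stand for a settled PrE-like state in another genetic background. All inducible cells carried the cassette, d0 included, and the labels do not say which clone of it was assayed.

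The values are the authors' averages per group in RPM, region reads relative to library size, which carry no error. For all groups but d0 the averages could be resolved into the whole reads of 16 libraries at 24727 regions, 165 of the 250 among them. The libraries held 181.2 M to 288.4 M reads, save 1 XEN library of 43.3 M, with 5686 to 21162 reads in the 165 regions and 2095 in that XEN library. XEN resolved into 2 libraries although 3 samples are labelled. The summed RPM of the recovered regions ranged from 2768 to 5090 among the 8 h libraries, so that levels within a library move together. At loci of ES markers such as Pou5f1 and Nanog the summed RPM was 26.3 at d0, 41.6 at day 2, 22.9 at day 4 and 15.0 in XEN. At loci of PrE markers such as Gata4 and Sox17 it was 25.4, 103, 85.1 and 55.0 in the same order. Among the ES loci, Pou5f1, Sox2, Nanog, Esrrb and Tfcp2l1 were lower at day 4 than at d0. Klf4 (6.05 at d0, 9.04 at day 4) and Zfp42 (1.21, 1.43) were higher. Regions nearest fibroblast genes, which could report feeder cells, were 16 regions of 7 of the 10 genes. They summed to 1.83 RPM at d0, 3.49 at day 2, 2.46 at day 4 and 2.92 in XEN. Their part in the results was not tested.

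The sequences below were read from mm10 (GRCm38.p6) at the best motif matches listed in the table, for regions described further on. They show the pair of motifs in a region that opened, the same pair in a region that was among the most open before induction, and the ES-type motifs in a region that lost accessibility. The region near Xrcc2, which opened, also has a GATA6 match and an OCT4:SOX2 match, neither printed here. Capitals mark the matched motif, lower case its flanks, and each is written on the strand of the match, named by the nearest gene.
SOX17 match near Vcp, chr4:42986935-42986959, minus strand: gctgagctATCATTGTCtttagaat
GATA6 match near Vcp, chr4:42986972-42986996, plus strand: actagtCTCAGATAAAAATaaacct
SOX17 match near Xrcc2, chr5:25676356-25676380, plus strand: gacagggtGTCATTGTGtagcccgg
SOX17 match near Eno1, chr4:150240107-150240131, plus strand: cctacctaCCCATTGTCccatcccc
GATA6 match near Eno1, chr4:150240247-150240271, plus strand: tcaggtGTCAGATAACAAGggatag
ESRRB match near Paqr8, chr1:20867695-20867719, plus strand: tcacgagCCAAGGTCACTtgctgga
OCT4:SOX2 match near Paqr8, chr1:20867531-20867555, minus strand: atgccTATTCACATGTAGAAaggtt
The SOX17 matches near Vcp, Xrcc2 and Eno1 all hold the SOX core CATTGT, and the GATA6 matches near Vcp and Eno1 hold AGATAA.

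Before induction these regions were open. At d0 their median accessibility was 0.390 RPM per kb of region, against 0.142 over all regions, 0.0890 in the 12558 Late regions without PTF and 0.102 in the 1435 Late regions that gained PTFs ectopically. PTF-bound regions of the other GATA6 clusters lay closer, at 0.277 in the 3282 Early&Constant and 0.323 in the 5309 Transient regions. The table classes 79 of the 250 (31.6%) as accessible at d0, 153 (61.2%) as moderate and 18 (7.2%) as closed. Of Late regions without PTF, 83.9% are in the closed class, as are 72.6% of Late regions with ectopic PTF, 34.7% of Early&Constant and 13.4% of Transient regions bound by PTFs at d0.

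Their histone marks in ES cells, taken from the table's classes of published data, were most often those of active enhancers and promoters. The classes were active enhancer for 79 regions (31.6%), promoter for 60 (24.0%), primed enhancer for 59 (23.6%) and poised enhancer for 28 (11.2%). A further 15 (6.0%) were constitutive heterochromatin, 8 (3.2%) naive and 1 (0.4%) facultative heterochromatin. In Late regions without PTF, facultative heterochromatin took 36.1% and promoters 4.16%. In Transient regions bound by PTFs at d0, active enhancers took 33.2% and promoters 8.44%.

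**Figure D1:**
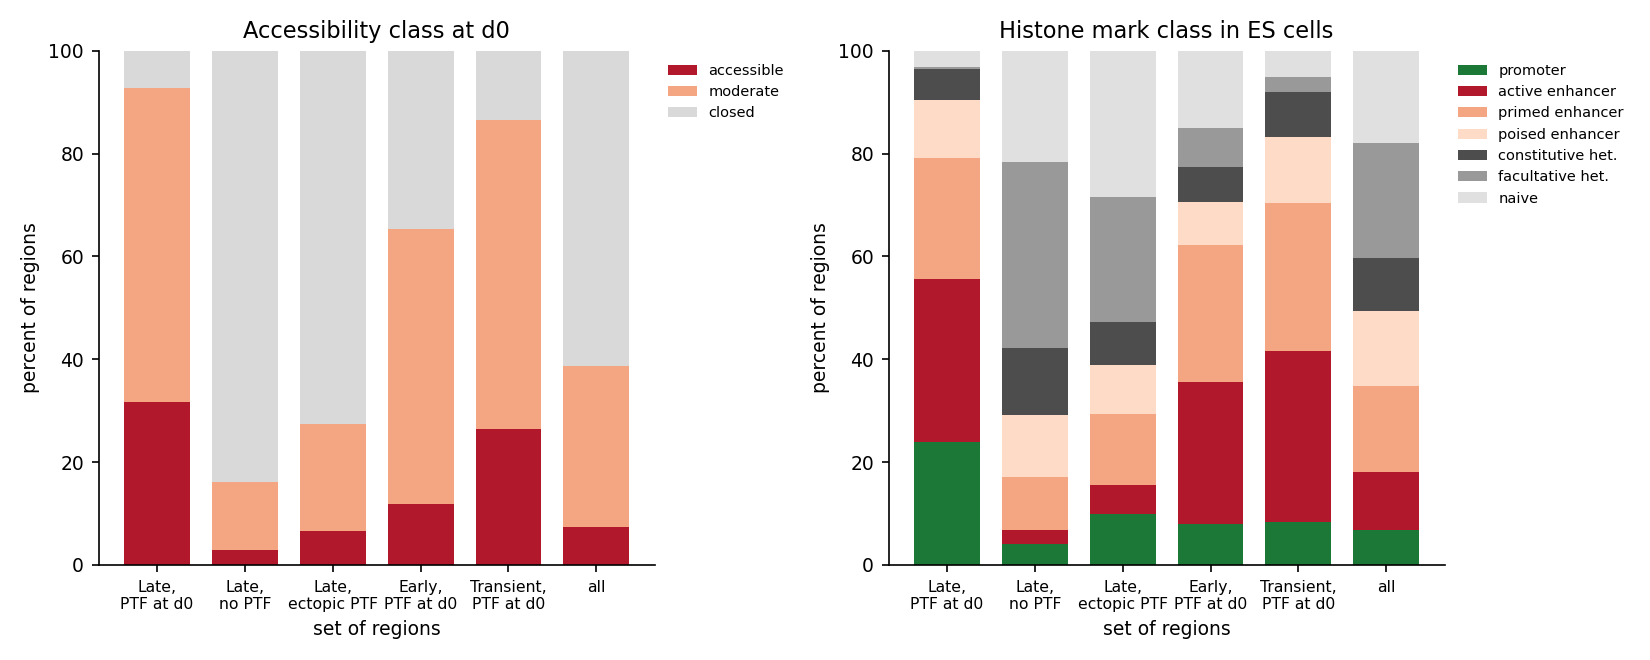
Percent of regions (y axis, 0 to 100) in each accessibility class at d0 (left) and each class of histone marks in ES cells (right), for the 250 regions (first bar), 4 other sets and all 42403 regions. The closed class is 7.2% of the first bar and 83.9% of Late regions without PTF, and the promoter class is 24.0% and 4.16%.

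The same lean towards promoters is seen in the gene annotation. The peak summit of 49 regions (19.6%) lay within 1000 bp of the start site of a protein-coding gene, 99 (39.6%) were intronic and 88 (35.2%) intergenic. Promoters made up 6.30% of Late regions without PTF, 5.88% of Early&Constant and 5.84% of Transient regions bound by PTFs at d0, and 7.38% of all regions. In 38 regions (15.2%) the 300 bases around the summit had a CpG content of over 0.6 of that expected from base composition, against 4.07% of all regions. None of 31 genes of a PrE and endoderm list, such as Gata4, Sox17 and Lama1, was the gene nearest to any of the 250. Of the whole series, 317 regions (0.748%) lie nearest to 28 of these genes. Of 23 pluripotency genes 1, Sall4, was nearest to 1 region (0.4%), and 215 regions of the series (0.507%) lie nearest to 22 of them. The counts among the 250 are near these shares.

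GATA6 matches were fewer and poorer than elsewhere. The table gives a GATA6 match for 167 of the 250 (66.8%), against 86.6% of Late regions without PTF, 95.2% of Early&Constant and 83.3% of Transient regions bound by PTFs at d0, and 89.7% of all regions. The median score of the best match was 8.59, against 9.46 in Late regions without PTF, 10.8 in Early&Constant PTF regions and 10.2 over all regions. The median distance of that match from the GATA6 summit was 118 bp, against 48.0 bp in Late regions without PTF and 51.0 bp over all regions. The letters AGATAA, searched on both strands within 300 bases around the summit, occurred in 50 regions (20.0%), in 53.9% of Late regions without PTF and in 58.1% of all regions. These widths differ, with a median region width of 529 bp here and 393 bp in Late regions without PTF, and the table's matches were called over whole regions, whereas the letter search used windows of 1 length.

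SOX matches were listed at shares between those of the other sets. A SOX17 match was listed in 194 regions (77.6%), against 66.9% of Late regions without PTF, 78.0% with ectopic PTF, 89.0% of Early&Constant and 76.7% of Transient regions bound by PTFs at d0, and 69.2% of all regions. An OCT4:SOX2 match was listed in 187 (74.8%), against 59.1% of Late regions without PTF, 73.8% with ectopic PTF, and 92.9% of Early&Constant and 91.8% of Transient regions bound by PTFs at d0, with a median score of 8.37 against 10.5 in the Transient set. The octamer ATGCAAAT, which OCT4 binds, occurred near the summit of 6 regions (2.4%), against 9.66% of those Transient regions. ESRRB matches were listed in 77 regions (30.8%), against 58.8% of Early&Constant and 46.6% of Transient regions bound by PTFs at d0. The SOX letters ACAAT occurred in 164 regions (65.6%) and in 55.3% of all regions. SOX17 peaks, called after induction, overlapped 200 of the 250 (80.0%), against 48.9% of Late regions without PTF, 87.7% with ectopic PTF, 88.4% of Early&Constant and 25.4% of Transient regions bound by PTFs at d0, and 44.5% of all regions.

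After induction, accessibility stayed near its d0 level for 16 h and then rose. The median over the 250 regions was 0.196 RPM at d0 and 0.180 at both 8 h and 16 h. It was 0.255 at day 1, reached 0.326 at day 2, and was 0.293 at day 4 and 0.230 in XEN. On the log2(RPM + 0.03) scale used for all changes here, the regions differed from d0 by a median of -0.07 after 8 h and -0.03 after 16 h. Day 1 brought 0.29, day 2 gave 0.76 and day 4 gave 0.55, with 0.15 for XEN. Over all 42403 regions the medians were, in the same order, 0.03, 0.11, 0.31, 0.69, 0.52 and 0.40. No region of the 250 passed 2-fold against d0 at 8 h or 16 h, where 0.0% and 0.00236% of all regions did in each direction. Relative to the medians of all regions, the 250 moved by -0.10 at 8 h and -0.14 at 16 h, when 56 and 62 of them lay above those medians. Transient regions bound by PTFs at d0 moved likewise, by -0.14 and -0.18. Later the 250 regions moved by -0.02 at day 1, by 0.06 at day 2 and by 0.03 at day 4, with -0.25 in XEN. Their rise at days 1 to 4 was thus close to that of GATA6-bound regions at large, and its sign at these times turned when each column was centred on its own median. Of the 250, 131 lay above the median change of all regions at day 4 and 81 did in XEN.

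**Figure D2:**
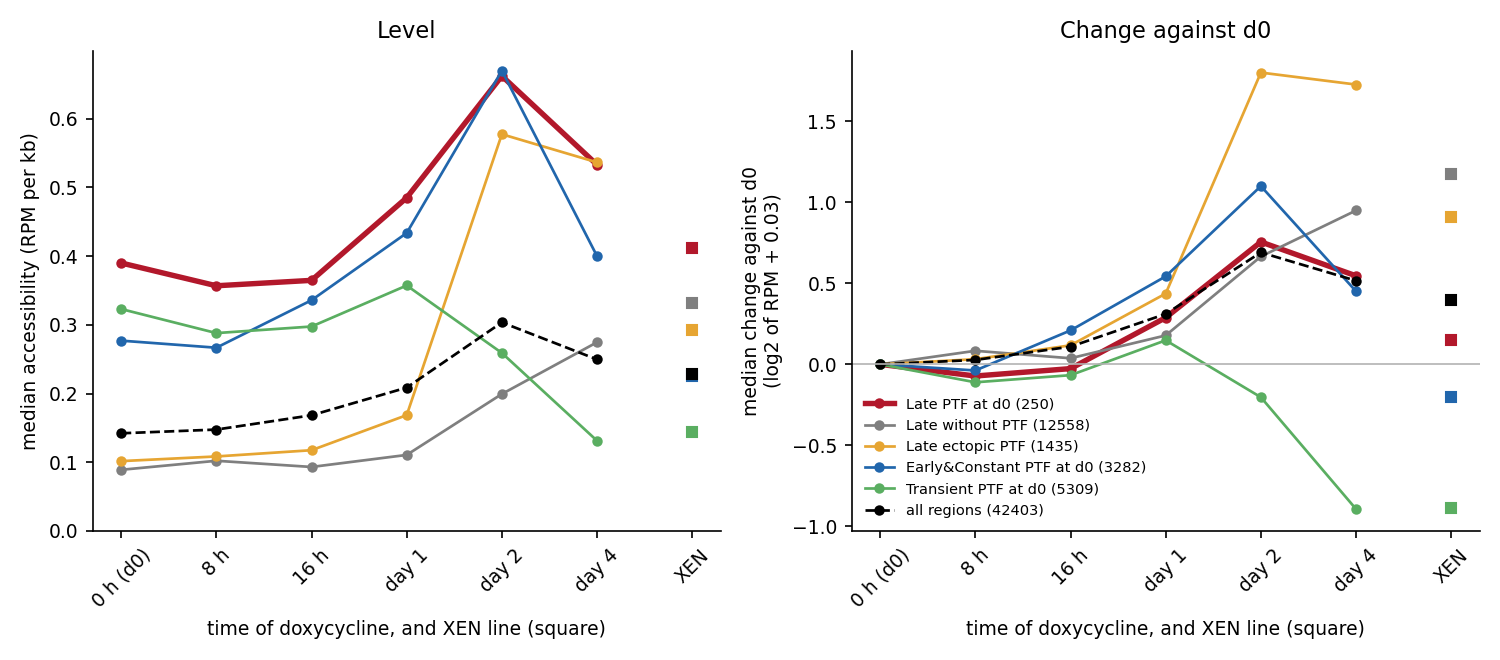
Median accessibility in RPM per kb (left) and median change against d0 in log2(RPM + 0.03) (right) by time of doxycycline, with XEN cells as squares, for the 250 regions (thick red line), 4 other sets and all regions (dashed). The red line starts highest in level, at 0.390 RPM per kb, follows the dashed line in change to day 4 and lies below it in XEN (0.15 against 0.40).

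The other sets followed other courses. Late regions without PTF rose by a median of 0.67 at day 2, 0.95 at day 4 and 1.17 in XEN, and Late regions with ectopic PTF by 1.80, 1.73 and 0.91. The median change at day 4 was 0.40 lower in the 250 regions than in Late regions without PTF, a difference that ranged from -0.69 to -0.06 between pseudocounts of 0.006 and 0.15 RPM, since those regions start near 0. Single libraries cover recovered regions only: 165 of the 250, 7153 Late without PTF, 1879 Early&Constant and 3102 Transient with PTFs at d0. There the 165 exceeded the Late regions without PTF by 1.57 ± 0.37 at 8 h (difference of medians, log2 scale, SD, n = 3). The difference was 1.15 ± 0.09 (n = 2) at day 4, where the libraries overlap with those of 8 h. In XEN it was 0.61 ± 0.16 (n = 2), without overlap. Early&Constant regions bound by PTFs at d0 peaked at day 2 (1.10), went to 0.45 at day 4 and were below d0 in XEN (-0.20). Transient regions bound by PTFs at d0 had changed by -0.20 at day 2 and -0.89 at day 4. The 165 regions and the recovered Transient set had similar levels at 8 h (difference of medians -0.05 ± 0.04 on the log2 scale, SD, n = 3 libraries). They were apart by 1.40 ± 0.12 (n = 2) at day 4. Against the recovered Early&Constant set the difference was -0.60 ± 0.08 (n = 3) at 8 h and -0.90 ± 0.05 (n = 3) already at 16 h, without overlap. At day 4 it was -0.54 ± 0.10 (n = 2), which overlaps with 8 h. These library levels are RPM per region, and median widths were 529 bp here, 1059.5 bp in Early&Constant and 669 bp in Transient regions. Per kb, the 250 regions lay above the Early&Constant set, at 0.357 against 0.267 at 8 h and 0.533 against 0.400 at day 4. At day 2 they lay just below, at 0.662 against 0.670. No p-value is given for these medians, since the regions were chosen with results of these data known.

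Counted region by region, 70 of the 250 were more than 2-fold above d0 at day 2 and 1 was more than 2-fold below, and 56 and 5 were at day 4. In XEN the counts were 28 and 10. The shares past 2-fold over all regions were 36.8% higher and 1.41% lower at day 2, 31.0% and 7.27% at day 4, and 27.7% and 8.83% in XEN, so the 28.0%, 22.4% and 11.2% of the 250 that were higher all lay below the share of regions at large. At day 1 2 regions were more than 2-fold higher and 0 lower, against 4.55% and 0.00707% of all regions.

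The recovered libraries allowed a test across regions, with 8 h as the baseline in place of d0. The median over the 165 regions was 0.142, 0.268 and 0.169 RPM in the 8 h libraries, 0.334, 0.395 and 0.267 in those of day 2, and 0.283 and 0.307 in those of day 4. The highest 8 h library thus reached the lowest of day 2 and lay just under day 4. With limma, fitted to all 24727 regions and called at a Benjamini-Hochberg adjusted p under 0.05 and more than 2-fold, 2 of 165 were higher at day 1 and none lower. At day 1, 33 of the 165 had an unadjusted p under 0.05, as did 4985 of all 24727. At day 2, 65 were higher and 0 lower. An unadjusted p under 0.05 in either direction was then found in 105 of the 165 and in 13808 of all 24727. At day 4, 39 were higher and 3 lower, and in XEN 23 were higher and 8 lower. The shares called over all regions were 5.43% higher and 0.0162% lower at day 1, 36.8% higher and 1.15% lower at day 2, 30.5% and 6.6% at day 4, and 24.3% and 8.24% in XEN. For the 165 regions the shares called higher were 39.4% at day 2, 23.6% at day 4 and 13.9% in XEN. Between day 2 and day 4, 1 was higher and 5 lower (2.0% and 8.74% of all regions), and from day 4 to XEN 4 were higher and 15 lower (5.56% and 12.0%). The 15 became 5 or 7 without the first or the second day 4 library and 7 without the shallow XEN library, which also took those lower in XEN against 8 h from 8 to 5. Over all regions, the counts without these libraries were 1057, 1287 and 1277, and 1447 for the last comparison.

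Both directions of these calls depend on the scale. With each library centred on its median over all regions tested, 7 of the 165 were called higher and 10 lower at day 2. The counts were 15 and 15 at day 4, and 9 and 21 in XEN. Of all 24727 regions, 3457 were then called higher and 3359 lower at day 2, 4002 and 3861 at day 4, and 3090 and 4257 in XEN. Centring moved the median of all regions by 0.78, 0.52 and 0.47 on the log2 scale, in the same order. The uncentred counts among the 165 also rested on 1 library of 8 h, the one with the highest values. Without it 11 were called higher at day 1, with 90 at day 2, 65 at day 4 and 33 in XEN, and 1 lower at day 4. Over all regions 2234, 10395, 8692 and 6660 were then higher, and 1097 lower at day 4. Without the first or the second day 4 library, 22 or 29 were called higher at day 4, and without the first 1 was called lower. Over all regions these were 6343 or 6702 higher, and 1243 lower.

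The 200 regions with a SOX17 peak and the 50 without went different ways. Those with SOX17 rose by a median of 0.83 at day 2 and 0.62 at day 4, and those without by 0.10 and -0.06. At day 4, 54 of the 200 were more than 2-fold above d0 and 1 was below, and of the 50 without SOX17 2 were above and 4 below. In XEN the median changes were 0.18 and 0.07. A difference at day 4, 0.68 here, was also present in the other sets, where regions with SOX17 exceeded those without by 0.75 in Late regions without PTF, 1.06 in those with ectopic PTF, 0.83 in Early&Constant and 0.55 in Transient regions bound by PTFs at d0, and 1.02 over all regions.

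**Figure D3:**
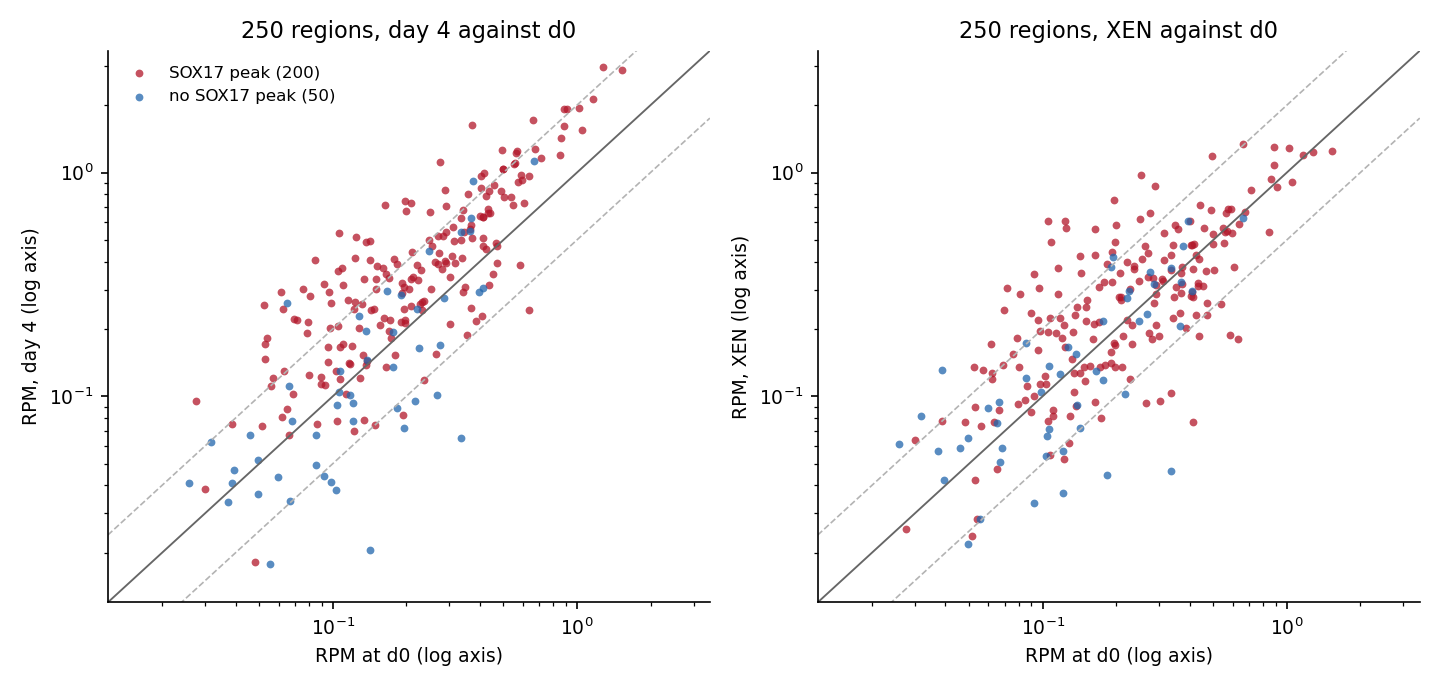
Accessibility at day 4 (left) and in XEN (right) against d0, in RPM on log axes, for each of the 250 regions, in red with a SOX17 peak (200) and in blue without (50). The solid line marks equal values and the dashed lines a 2-fold difference, and at day 4, 54 red and 2 blue regions are counted more than 2-fold above d0 on the log2(RPM + 0.03) scale.

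Within a library, the medians of regions with and without SOX17 share the same scaling. Their difference on the log2 scale is not free of that scaling, because the pseudocount weighs more on low values. It ranged from 0.36 to 0.70 among the 3 libraries of 8 h. Over 131 regions with and 34 without SOX17, the medians at 8 h were 0.152, 0.296 and 0.192 RPM with SOX17 and 0.112, 0.172 and 0.117 RPM without. At day 4 they were 0.331 and 0.342 RPM with SOX17 and 0.112 and 0.113 RPM without, the latter resting on a median of 21 and 22.5 reads per region. Regions with SOX17 were thus the more open in all 16 libraries, and the gap widened with time. The difference between both medians was 0.55 ± 0.17 at 8 h (log2 scale, SD, n = 3 libraries), 0.47 ± 0.08 at 16 h (n = 3), 0.61 ± 0.12 at day 1 (n = 3), 0.88 ± 0.11 at day 2 (n = 3), 1.36 ± 0.02 at day 4 (n = 2) and 0.89 ± 0.19 in XEN (n = 2). The libraries of day 2, day 4 and XEN all lay above those of 8 h, and those of 16 h and day 1 overlapped with them. Of the regions called by limma at day 4, 38 of the 39 higher had a SOX17 peak, and 1 of the 3 lower did. Of the 131 regions with SOX17, 29.0% were thus called higher and 0.763% lower. The shares were 2.94% and 5.88% of the 34 without, and 30.5% and 6.6% of all regions.

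**Figure D4:**
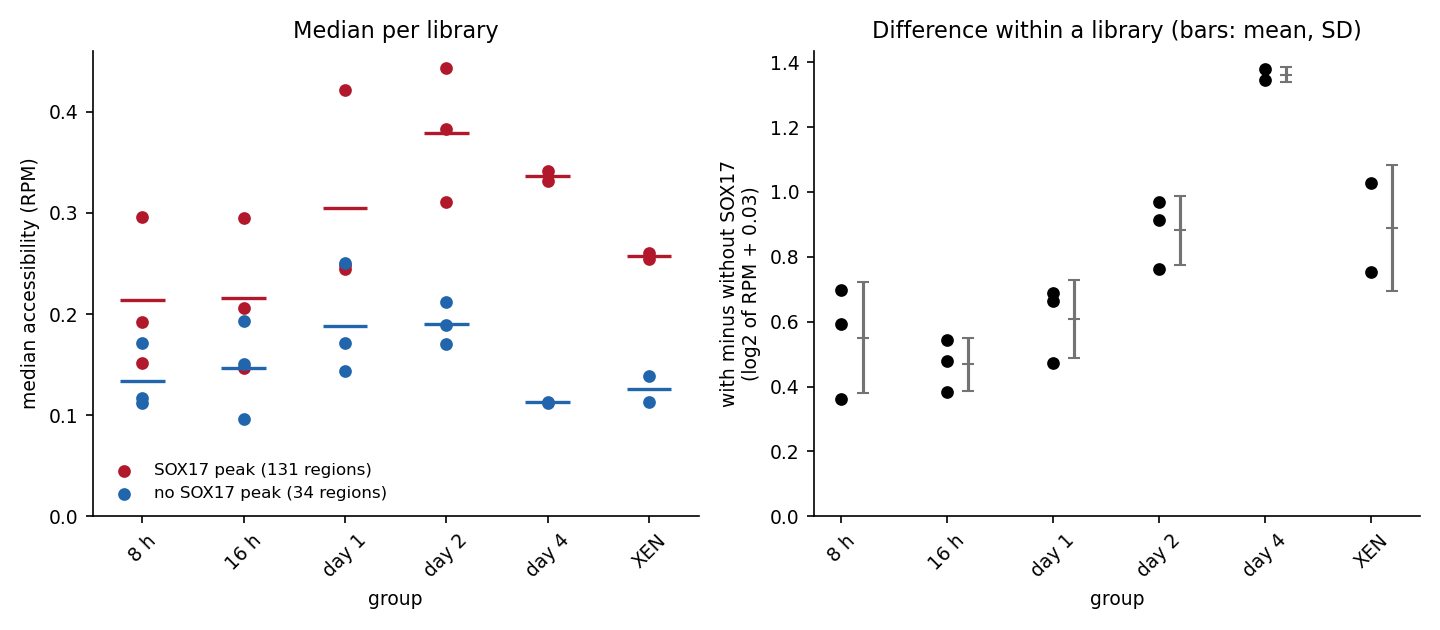
Median accessibility in RPM of recovered regions with (red, 131) and without (blue, 34) a SOX17 peak in each library, with the group mean as a line (left), and the difference of both medians within each library in log2(RPM + 0.03), with mean and SD in grey (right), by group from 8 h to XEN. The difference is 0.55 at 8 h and 1.36 at day 4.

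The gap by SOX17 was present in each accessibility class. At day 4 the median change was 0.54 with and -0.28 without SOX17 among accessible regions (67 and 12), 0.63 and -0.12 among moderate regions (121 and 32), and 1.52 and 0.20 among closed regions (12 and 6). These classes refer to d0 itself, so changes against d0 share their value with the class. A motif match alone did not part the regions in this way: without a SOX17 peak, the median change at day 4 was -0.03 in the 30 regions with a SOX17 match and -0.12 in the 20 with none, and with a peak it was 0.62 in 164 and 0.57 in 36.

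By histone marks, regions classed as promoters in ES cells rose by 0.66 at day 4 and stood at 0.04 in XEN (60 regions), and active enhancers by 0.27 and -0.18 (79 regions). Primed enhancers changed by 0.50 and 0.31 (59 regions) and poised enhancers by 0.59 and 0.32 (28 regions). The 8 naive regions had the highest median change at day 4, 1.22, from a low median of 0.0837 RPM at d0. Active enhancers without SOX17 had a median change of -0.39 at day 4 in 16 regions, against 0.40 in the 63 with SOX17. All 5 regions more than 2-fold lower at day 4 were enhancers by this class, 3 of them active (nearest Paqr8, Sgk1 and Itgb5) and 2 poised (nearest Fgf9 and Ednrb). Active and poised enhancers made up 31.6% and 11.2% of the 250, and primed enhancers 23.6%. The regions near Itgb5, Fgf9 and Ednrb are named after their values were seen, and no libraries were recovered for them.

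The 6 regions with the largest gain from d0 that limma also called higher at day 4 all had a SOX17 peak and a SOX17 match. Of these 6, 5 had an OCT4:SOX2 match and 4 a GATA6 match. Among the 250 regions the shares were, in the same order, 80.0%, 77.6%, 74.8% and 66.8%. Coordinates here and below are those of the table in mm10. The region chr6:5008070-5008949, 103197 bp from the start of Ppp1r9a, which encodes an actin-binding scaffold, lies in an exon annotated as untranslated in a transcript of that gene and is classed as poised. Its values were 0.0902, 0.160 and 0.0891 RPM at 8 h, 0.968, 1.08 and 0.612 at day 2, 0.711 and 0.724 at day 4, and 0.462 and 0.652 in XEN. Every library from day 1 on lay above every library of 8 h and 16 h. Its log2 change from 8 h was 1.48 ± 0.35 (SE) at day 1 (limma, adjusted p = 0.00297) and 2.42 ± 0.39 at day 4 (adjusted p = 1.46e-08).

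The region chr11:86051396-86051754, intergenic and 149603 bp from the start of the DNA repair helicase gene Brip1, was high at days 2 and 4 and low in XEN. It measured 0.0617, 0.103 and 0.127 RPM at 8 h, 0.441, 0.710 and 0.293 at day 2, 0.369 and 0.442 at day 4 and 0.0923 and 0.101 in XEN. The XEN libraries fell within the range of 8 h and under both day 4 libraries. Its log2 change was 1.80 ± 0.38 at day 4 against 8 h (adjusted p = 1.47e-05) and -1.78 ± 0.41 in XEN against day 4 (adjusted p = 0.000522), in the limma fit. It has no GATA6 match in the table.

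The region chr4:42986885-42987444, in an intron of Vcp, the gene of an ATPase that unfolds ubiquitinated proteins, was in the closed class at d0 and was not called at day 2. It carried the SOX17 and GATA6 matches printed above. Its values were 0.0380, 0.0282 and 0.0797 RPM at 8 h, 0.140, 0.157 and 0.0524 at day 2, and 0.214 and 0.296 at day 4. The day 4 libraries lay above all others, while 1 library of day 2 lay among those of 8 h. The log2 change was 1.90 ± 0.36 at day 4 against 8 h (limma, adjusted p = 1.74e-06) and 1.03 ± 0.36 at day 4 against day 2 (adjusted p = 0.0420).

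The region chr5:25676126-25676655, intergenic near the recombination gene Xrcc2, was likewise in the closed class. It gave 0.0237, 0.0799 and 0.0844 RPM at 8 h and 0.257 and 0.327 at day 4, without overlap, for a log2 change of 1.86 ± 0.37 (limma, adjusted p = 4.46e-06). The region chr13:93102176-93102969, in an intron of the muscle gene Cmya5, gave 0.142, 0.235 and 0.159 RPM at 8 h and 0.807 and 0.678 at day 4. Its log2 change was 1.91 ± 0.39 (limma, adjusted p = 9.79e-06), and it stayed high in XEN at 0.462 and 0.513 RPM. The region chr10:8886355-8886683, 398 bp upstream of Sash1, a gene of a signalling scaffold, was the only promoter of the 6. It gave 0.119, 0.301 and 0.131 RPM at 8 h, 0.997, 1.25 and 0.940 at day 2, and 0.818 and 0.648 at day 4, with a log2 change of 1.93 ± 0.39 at day 4 (limma, adjusted p = 8.01e-06).

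The 3 regions called lower at day 4 were all classed as accessible active enhancers in ES cells. All 3 were intergenic, all had an OCT4:SOX2 match and none had a GATA6 match. Among the 250, 31.6% were classed as accessible, 31.6% as active enhancers and 35.2% were intergenic. An OCT4:SOX2 match was listed in 74.8% and no GATA6 match in 33.2%. The region chr1:20867241-20867736, 23104 bp from Paqr8, the gene of a membrane progestin receptor, has the ESRRB match printed above, with a score of 14.8, and no SOX17 peak. It gave 0.247, 0.428 and 0.216 RPM at 8 h, 0.204, 0.533 and 0.233 at day 1, 0.140, 0.167 and 0.153 at day 2, 0.0802 and 0.0502 at day 4, and 0.0231 and 0.0694 in XEN. Every library from day 2 on lay below every 8 h library. The log2 change was -1.74 ± 0.38 at day 4 (limma, adjusted p = 3.10e-05) and -2.11 ± 0.38 in XEN (adjusted p = 4.67e-07).

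The region chr10:21828917-21829593, 53007 bp from the kinase gene Sgk1, carried a SOX17 peak and still lost accessibility. Its day 4 average of 0.244 RPM stayed above the median of all regions, 0.129. It gave 0.361, 0.841 and 0.516 RPM at 8 h and 0.257 and 0.231 at day 4, without overlap, for a log2 change of -1.06 ± 0.39 (limma, adjusted p = 0.0182). The region chr9:99152747-99153007, 12219 bp from Pik3cb, which encodes a catalytic subunit of PI3-kinase, gave 0.0902, 0.108 and 0.108 RPM at 8 h and 0.0160 and 0.0603 at day 4. Its log2 change was -1.03 ± 0.35 (limma, adjusted p = 0.0100), but 1 library of day 2 (0.124 RPM) lay above the 8 h libraries. At these low values the size of the loss depends on the pseudocount. Against d0 the day 4 change was -0.97, with -1.31 and -0.43 for pseudocounts of 0.006 and 0.15 RPM.

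**Figure D5:**
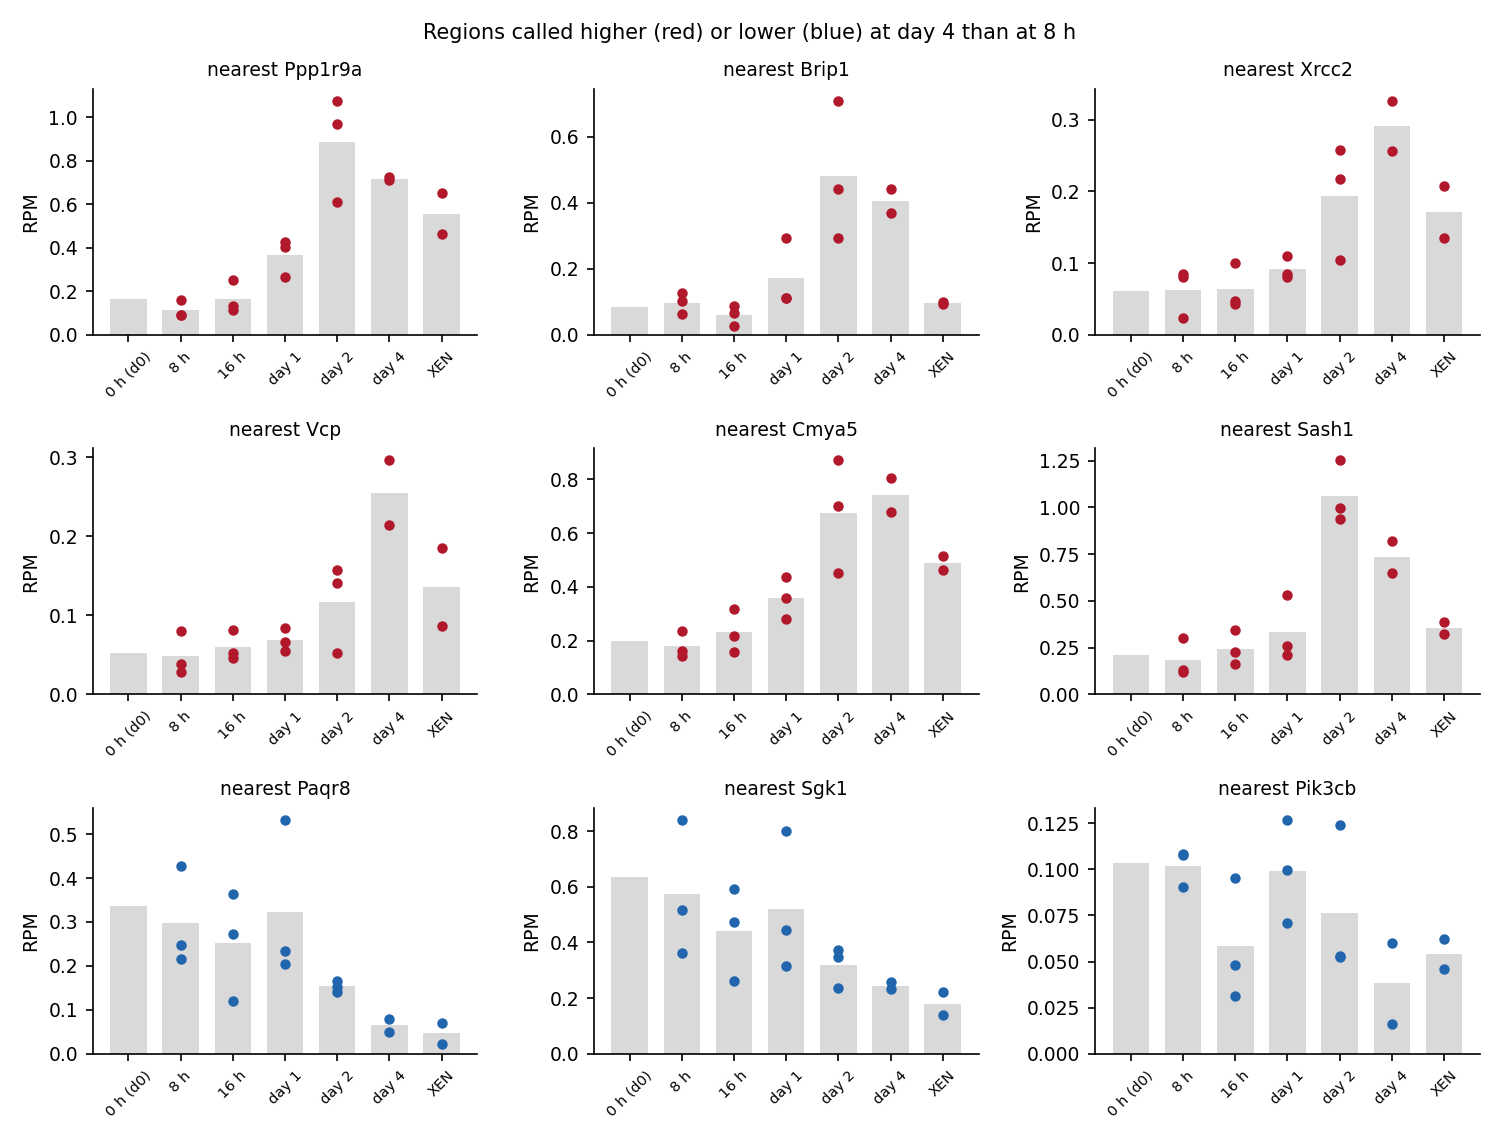
Accessibility in RPM (y axis, from 0) of the 6 regions called higher with the largest gain (red points) and the 3 called lower (blue points) at day 4 against 8 h, by group. Grey bars are the authors' group averages and points single libraries, with none at d0, and the Vcp region rises last, from 0.117 RPM at day 2 to 0.255 at day 4.

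The 4 regions most open at d0 for their width all had a SOX17 peak, and 3 of them lie at promoters (80.0% and 19.6% of the 250). They are chr7:16874865-16875305 at the promoter of Dact3, a gene of a Wnt pathway antagonist (2.01 RPM per kb at d0), chr4:150240006-150240389 in an intron of the enolase gene Eno1 (1.55), chr11:62076636-62077243 at the promoter of Specc1 (1.5) and chr5:109557165-109557678 at the promoter of the cytokine receptor gene Crlf2 (1.39). Of these only Specc1 was called at day 4, with 0.612, 1.34 and 0.638 RPM at 8 h, 2.02 and 1.83 at day 4, and a log2 change of 1.22 ± 0.40 (limma, adjusted p = 0.00776). It was lower in XEN than at day 4 by a log2 change of -1.16 ± 0.44 (adjusted p = 0.0478). Eno1 changed by 0.61 ± 0.40 at day 4 (adjusted p = 0.202) and Crlf2 by 0.70 ± 0.40 (adjusted p = 0.143) in the same limma fit, and neither passed the test. Dact3, at 0.96 ± 0.40 (limma, adjusted p = 0.0404), passed on p and not on the fold.

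The region at the promoter of Sall4, which encodes a zinc-finger factor of pluripotent cells, is chr2:168766942-168767486. Its averages were 0.536 RPM at d0, 0.940 at day 2, 0.775 at day 4 and 0.258 in XEN, and no libraries were recovered for it. It was thus highest at day 2 and lowest in XEN. Its change at day 4 was 0.51, equal to that of all regions at large (relative change -0.01, of either sign by the way columns are centred), and -0.98 in XEN.

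Some further regions lie near well-known genes and were picked after their values were seen. The promoter of Mycn, a proto-oncogene active in ES cells, went from 0.247 RPM at d0 to 0.448 at day 4, and its log2 change from 8 h of 0.96 did not reach 2-fold (limma, adjusted p = 0.0333). A region 116579 bp from Inhbb, which encodes an activin subunit, went from 0.553 RPM at d0 to 1.09 at day 4 and 0.486 in XEN and was called at day 4 (log2 change 1.01, limma, adjusted p = 0.0274). The region near the epithelial keratin gene Krt8 averaged 0.497 RPM at d0, 1.38 at day 2, 1.03 at day 4 and 0.530 in XEN. The promoter of Trib1, a gene of a pseudokinase, had the highest day 4 value of the 250, 2.98 RPM, from 1.28 at d0, and was back at 1.24 in XEN. Near Kit, the receptor gene of germ and blood stem cells, a region with a SOX17 peak gave 0.369 RPM at d0 and 0.249 at day 4, with a log2 change from 8 h of -0.65 that did not pass the test (limma, adjusted p = 0.164). The nearest gene is a matter of distance only, and expression was not measured here.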

How the data were processed

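ATAC-seq reads were trimmed with cutadapt and aligned to mm10 with Bowtie2 by the authors, who kept fragments under 100 bp, counted them in GATA6 regions and deposited averages per group in RPM (7 columns, 1 per group), to which 1 read per region and library appears to have been added. The authors' motif scores (FIMO) and categories were used as deposited, and the start and end coordinates as well. A column with the authors' own comparison, of GATA6 binding after Oct4 was knocked down, was not used, nor were 52 per-sample columns of other assays. Groups follow the sample titles. The treatment labels give 16, 24, 48, 72 and 96 h in the order of the times, longer than the titles at all but day 4.

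Since every library contributes an integer number of reads to an average, values given to 13 or more significant digits were solved for these integers, to within 1e-07 reads (tested on simulated data). The d0 column gave no solution. Libraries carry no replicate number. Values of libraries were tested on log2(RPM + 0.03) with limma 3.58.1 (R 4.3.3), with trend, over all 24727 regions, called at adjusted p under 0.05 and 2-fold. The averages carry no spread and were described. The authors call the cultures independent, but no label ties a recovered library to a culture, so p-values measure the spread between libraries. PCR reads are not independent molecules, and depth limits counting error only. The files name no genes, so the nearest protein-coding start site in GENCODE M21 was used in place of the planned assignment by the file. The members and gene lists were chosen with earlier results of these data known. Regions named were the 6 largest gains and up to 6 largest losses at day 4 among those called by limma in the same direction, the 4 highest at d0 per kb, and those nearest genes of the lists, outside chromosome 18. Alternatives were other pseudocounts, centring, quantile normalisation, a filter on low values, other thresholds, subtraction of the lowest value, a fit of the compared groups alone and leaving out libraries.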

Additional observations from a re-analysis of the deposited data

How the results depend on the processing

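With columns centred on their medians the median change of the 250 regions for days 1, 2 and 4 and XEN was -0.11, -0.075, -0.012 and -0.34, and with quantile normalisation -0.15, -0.24, -0.11 and -0.20, so the sign turned at all 4. With a pseudocount of 0.15 RPM the day 4 change was 0.38. The difference by SOX17 at day 4 kept its sign throughout, at 0.75 and 0.50 with pseudocounts of 0.006 and 0.15 RPM and 0.56 with quantile normalisation. The difference from Late regions without PTF was -0.69 and -0.055 with these pseudocounts and -0.61 with quantile normalisation.

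Past 2-fold against d0, centring gave 8 higher at day 2, 16 higher and 28 lower at day 4, and 11 higher and 40 lower in XEN. Quantile normalisation gave 6 at day 2, 10 and 32 at day 4, and 36 lower in XEN. A pseudocount of 0.15 RPM gave 36 at day 2, 25 and 1 at day 4, and 12 and 4 in XEN, and one of 0.006 RPM gave 11 lower at day 4 and 17 lower in XEN. A 1.5-fold threshold gave 154 at day 2, 116 and 23 at day 4, and 69 and 32 in XEN. Shares over all regions were not computed for these settings.

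For limma calls against 8 h, a pseudocount of 0.15 RPM gave 30 higher at day 2, 17 higher and 1 lower at day 4, 10 and 4 in XEN, and 8 lower in XEN against day 4. Over all 24727 regions these were 4859, 3426 and 485, 1919 and 778, and 1424. Centring gave 7 higher at day 2, 15 and 15 at day 4, and 9 and 21 in XEN, and quantile normalisation 4 at day 2, 13 and 15 at day 4, and 19 lower in XEN. Over all regions quantile normalisation gave 2862 at day 2, 4029 and 3887 at day 4, and 4288 lower in XEN. Leaving out 1 library gave 47 to 90 higher at day 2, 22 to 65 higher and 1 to 5 lower at day 4, 16 to 33 higher and 5 to 11 lower in XEN, and 5 to 11 lower in XEN against day 4, where a fit of only these groups gave 25. Over all regions the ranges were 7513 to 10395 at day 2, and 6222 to 8692 and 1097 to 2257 at day 4. They were 4826 to 6701 and 1379 to 2728 in XEN. In XEN against day 4 the range was 1057 to 1991, with 3519 in the fit of only these groups. The cause of these shifts was not tested. A lower count of 5 at day 4 came without the first 8 h library. Over all libraries, 44 values moved, 8 turned and 56 stayed within their limits, and with a library left out 9 moved and 21 stayed. A named region whose sign turned was that of Sall4, at -0.049 with centring. No paired analysis was possible because the columns are group averages and the recovered libraries carry no replicate number. The 85 regions without recovered libraries had a median change of 0.56 at day 4 and 0.31 in XEN, against 0.54 and 0.04 in the 165 with them, so the tested regions stood lower in XEN.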
